A study of Mus musculus with 3 samples.

Results

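Islet cells whose RNA holds glucagon and insulin together, called glucagon-insulin cells here, were described in mouse islets of Langerhans. A barcode was taken when at least 200 of every 10000 of its UMIs (unique molecular identifiers, 1 per captured RNA molecule) came from Gcg and at least 3000 from Ins1 and Ins2 together, with fewer than 100 from Sst. Of 12308 barcodes kept, 161 met the rule, 159 of them in 1 of the deposited tables and 2 in the other. The levels of Gcg, Ins1, Ins2 and Sst therefore chose the cells and are given as a description. They were set beside 944 alpha cells (Gcg at least 200, insulin under 3000), 7549 beta cells (insulin at least 3000, Gcg under 200) and the sums of alpha and beta cells. Alpha and beta cells also had Sst and Ppy under 100 per 10000.

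All mice carried Ngn3-CreERT and R26-CAG-TdTomato and were taken 10 days after tamoxifen, so the 3 samples form 1 group with no untreated or Cre-negative sample. In such mice a tamoxifen-activated Cre driven from Neurog3 (also called Ngn3) opens a red reporter at the Rosa26 locus. Replicates 2 and 3 each pooled 2 mice; the design text counts 6 mice, whereas the descriptions carry 5 mouse codes. Islets were freed with collagenase, cleaned on a density gradient, dissociated enzymatically and loaded at about 10000 cells per 10x Genomics 3-prime channel.

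Replicate 1 (library 1) held 1146 barcodes and 27474046 UMIs, of which 859 barcodes were kept. A joint table of 13042 distinct barcodes and 196833349 UMIs, of which 11449 barcodes were kept, was taken to hold replicates 2 and 3. Its barcodes carry 3 suffixes, called blocks 1, 2 and 3 here. No label ties a block to a sample, so the joint table counts as 1 library and the blocks show spread without being replicates. At most 6 barcode sequences were shared between any pair of blocks or between library 1 and a block. With 2 cells in library 1 no test across libraries could be made, and every comparison below is a value with its spread over blocks. Intervals in parentheses after shares and levels are exact 95% binomial and Poisson intervals, which cover counting error only.

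Glucagon raises and insulin lowers blood glucose, and each is normally made by its own endocrine cell type. Alpha cell identity rests on a set of transcription factors that includes Irx1 and Irx2. Beta cells instead use Pdx1, Nkx6-1 and Mafa. Cells with both hormones are known from the embryonic pancreas and from models in which one cell type converts into the other, and a droplet that captures 2 cells also gives 1 barcode with both hormones. For a single barcode, these cannot be told apart from its hormone counts.

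The sequences before the starts of the hormone genes are shown because the cells are defined by RNA from both kinds of promoter. Each is 250 bases upstream of the annotated start, from RefSeq on GRCm38.p6, for Gcg on chromosome 2 (62483654 to 62483903, minus strand) and for Ins1 on chromosome 19 (52264047 to 52264296, plus strand). Ins2, on chromosome 7 (142678656 to 142743381, minus strand), is named only. Capitals mark GCCATCTG, an E-box sequence known from insulin promoters, and TAAT, the core bound by homeodomain factors such as Pdx1. Both strands were searched, so that CAGATGGC and ATTA, the reverse complements, count as well; no matches overlap.
Gcg: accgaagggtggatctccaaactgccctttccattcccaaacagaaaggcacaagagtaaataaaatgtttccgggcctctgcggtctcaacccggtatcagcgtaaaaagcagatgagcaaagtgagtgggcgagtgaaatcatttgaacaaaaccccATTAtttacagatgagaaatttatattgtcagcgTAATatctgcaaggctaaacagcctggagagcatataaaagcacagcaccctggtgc
Ins1: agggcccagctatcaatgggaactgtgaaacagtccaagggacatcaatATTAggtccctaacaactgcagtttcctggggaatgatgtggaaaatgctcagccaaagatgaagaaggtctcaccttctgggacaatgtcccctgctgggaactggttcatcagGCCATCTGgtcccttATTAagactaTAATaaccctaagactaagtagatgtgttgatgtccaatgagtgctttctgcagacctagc
The Ins1 window held GCCATCTG at 1 place and TAAT at 3, and the Gcg window held TAAT at 2 and GCCATCTG at 0. Among 32851 RefSeq promoters of the same length, 1.11% held GCCATCTG and 54.9% held TAAT. A match is a description of letters, not of binding.

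Glucagon-insulin cells were 2 of 859 kept barcodes in library 1, or 0.233% (0.0282% to 0.839%), and 159 of 11449 in the joint table, or 1.39% (1.18% to 1.62%). The tables started from unlike barcodes: 255 in library 1 and 0 in the joint table were over the mitochondrial limit. Median UMIs of all their barcodes were 18140 and 13099.5. The blocks held 52 of 5204 (0.999%), 28 of 2607 (1.07%) and 79 of 3638 (2.17%, with an interval from 1.72% to 2.70%). Block 3 thus stood above the other blocks beyond counting error. Barcodes with Gcg at least 200 and insulin at least 3000, whatever their Sst, numbered 209, whereas multiplying the shares of the marks gives 1039 for the joint table. The ratio of the observed number to that product was 0.201, with 0.146, 0.182 and 0.286 in the blocks and 0.0585 in library 1. The same ratio was 0.413 for somatostatin with insulin and 2.62 for glucagon with pancreatic polypeptide. Insulin marked 7618 of the 11449 barcodes, so ratios with insulin have a lower ceiling than ratios without it.

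Among joint-table barcodes with insulin at least 3000 and low Sst, 7050 had Gcg under 20 per 10000, 86 had 20 to 50, 14 had 50 to 100, 14 had 100 to 200, 32 had 200 to 400, 72 had 400 to 800 and 55 had at least 800. Gcg in insulin-rich barcodes thus fell into a low and a high range with few barcodes between 50 and 200. Of barcodes with Gcg at least 200, 652 had insulin under 500 per 10000, 429 had 500 to 1000, 69 had 1000 to 2000, 38 had 2000 to 3000, 36 had 3000 to 4000, 48 had 4000 to 5000, 62 had 5000 to 6000 and 13 had more. The insulin threshold thus runs through a thinly filled range that holds cells on both sides of it. At the threshold itself, the lowest Gcg of a glucagon-insulin cell was 200.6 per 10000 and the highest Gcg just outside was 194.7. The lowest insulin inside was 3029 and the highest outside was 2999.5.

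**Figure D1:**
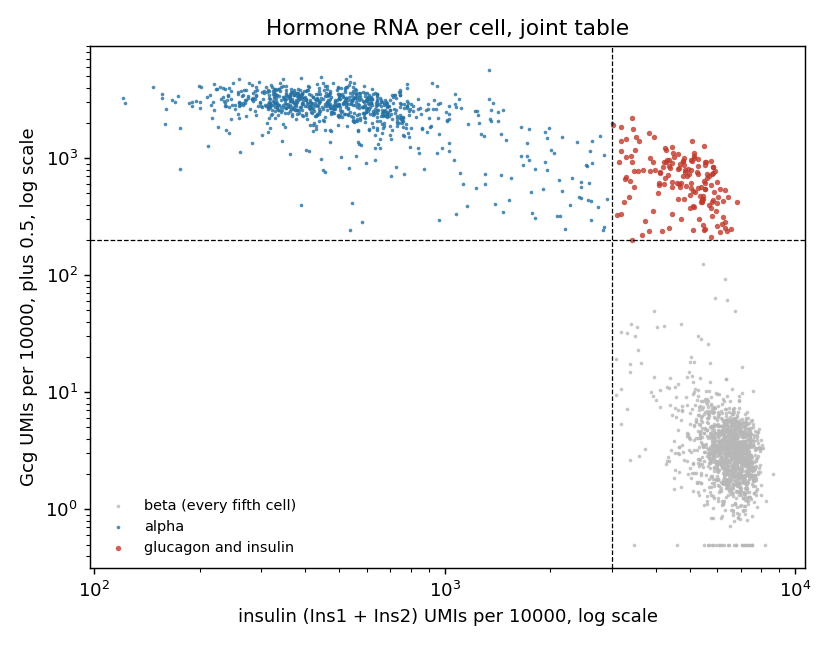
Gcg against insulin UMIs per 10000 in single barcodes of the joint table, both axes on a log scale with 0.5 added to Gcg; points are alpha cells, 1 beta cell in 5 and all 159 glucagon-insulin cells, and dashed lines are the thresholds of 200 and 3000. The glucagon-insulin cells lie between the alpha cells (median Gcg 2812) and the beta cells (median insulin 6578), with a median Gcg of 658 and a median insulin of 4857.

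Gcg ranged from 200.6 to 2220 per 10000 in glucagon-insulin cells, with a median of 658, whereas the median was 2812 in alpha cells and 2.72 in beta cells. Insulin ranged from 3029 to 6836 with a median of 4857, whereas the median was 6578 in beta cells and 498 in alpha cells. In UMIs per cell, Gcg had a median of 1708 in glucagon-insulin cells, 2183 in alpha cells and 5 in beta cells. Non-endocrine barcodes were defined by endothelial, immune, stromal and Schwann genes, with Gcg under 200, insulin under 3000, and Sst and Ppy under 100. Their median was 9.8 per 10000 for Gcg and 1047.5 for insulin, at 2851.5 UMIs per barcode. These cuts cap both values, so they describe free RNA only in barcodes under the thresholds.

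All pairings of 1 alpha and 1 beta cell of the same block were formed by adding their counts, 2215182 pairs in the joint table. Of these, 80.7% met the rule themselves. The pairs had a median of 762 Gcg per 10000, and 4903 insulin. Pairs that met the rule, which are cut off at the same thresholds as the cells, had medians of 773 and 4913. The glucagon-insulin cells had interquartile ranges of 440 to 925 for Gcg and 4114 to 5525 for insulin. These values chose the cells and are a description.

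Glucagon-insulin cells carried more RNA than cells with 1 hormone. They had a median of 24367 UMIs (lowest 1380, highest 76692), against 7644 in alpha and 19986 in beta cells. Hormone UMIs chose the cells, so the UMIs of all other genes were compared as well. These had a median of 10446 in glucagon-insulin cells, 5002 in alpha cells and 6700 in beta cells. In the pairs it was 11976, so that the glucagon-insulin cells lay at 0.872 of the pairs, with 0.873, 1.02 and 0.890 in the blocks. Pairs that met the rule had a median of 12394. Against these the ratio was 0.843, with 0.837, 0.994 and 0.873 in the blocks. Genes detected per cell followed the same order, with medians of 3575 in glucagon-insulin cells, 2060 in alpha cells, 2659 in beta cells and 3854 in pairs. Mitochondrial UMIs were 4.51%, 4.81% and 4.56% in glucagon-insulin, alpha and beta cells.

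**Figure D2:**
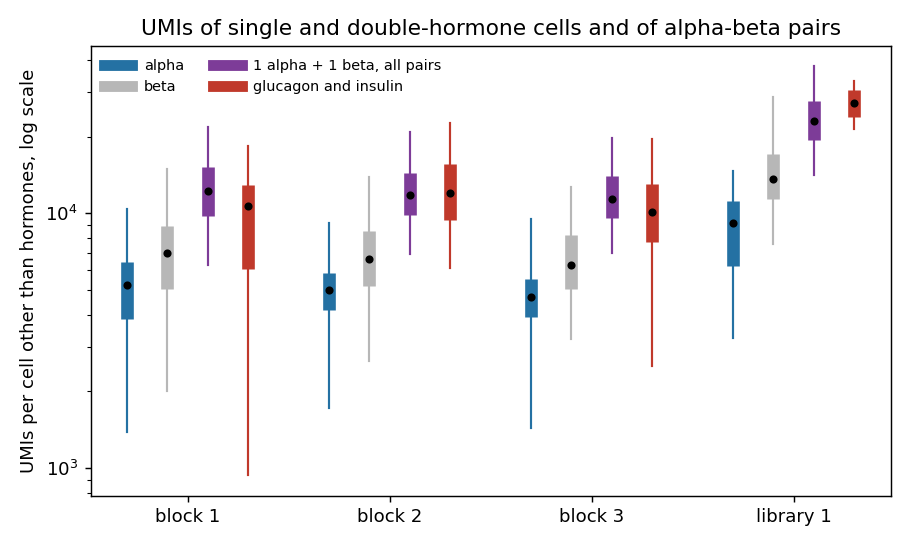
UMIs per barcode other than those of Gcg, Ins1, Ins2, Sst and Ppy, on a log scale, by block and in library 1; thick bars span the interquartile range of the cells or pairs, thin lines the 5th to 95th percentile, and black points are medians. In each block the glucagon-insulin cells (medians 10734, 12056 and 10097) lie above the alpha and beta cells and overlap the alpha-beta pairs (medians 12295, 11851 and 11345); library 1 holds only 2 such cells.

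A small number of barcodes stood apart from the rest: 14 of the 159 had under 5000 UMIs, with a median of 1815 UMIs, 570 genes and 14.1% mitochondrial UMIs. The other 145 had medians of 25491 UMIs, 3737 genes and 4.30% mitochondrial UMIs. Of the 14, 11 were in block 1, 0 in block 2 and 3 in block 3. Their Gcg had a median of 443 per 10000, or 85 UMIs, and their insulin 3502 per 10000, or 681 UMIs. Non-endocrine barcodes of block 1 had a median of 444 insulin UMIs (95th percentile 618) and 4 Gcg UMIs (95th percentile 9). The part of free RNA in the insulin of the 14 was not tested. Together the 14 contributed 15657 UMIs outside the hormones to the gene levels below. Without them, glucagon-insulin cells had 0.935 of the non-hormone UMIs of pairs.

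Levels of single genes are given below as UMIs per 10000 UMIs of genes other than the hormones, summed over the cells of a class in the joint table. The alpha plus beta sum is the mean alpha cell plus the mean beta cell, of which alpha RNA makes up 42.1%. Log2 differences were taken after adding 0.05. Genes at or above 0.1 per 10000 in at least 2 of the columns were compared, 9083 in all. A mix of alpha and beta levels fitted to the glucagon-insulin cells by non-negative least squares gave 36.6% alpha.

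Against the sum, log2 differences had an SD of 0.22 over all genes, and 97.9% lay within 0.5. More than 2-fold higher was 1 gene (0.011%) and more than 2-fold lower were 24 (0.264%), together 0.275%. Of the 24 lower genes, 11 were under 0.1 in both beta cells and glucagon-insulin cells and entered through alpha cells and the sum built from them. The filter left out 122 genes that reached 0.1 in glucagon-insulin cells alone, so it bears on the split between higher and lower. With no filter on low values 3 genes were higher and 33 lower. Against alpha cells alone, 376 genes (4.14%) were more than 2-fold higher and 120 (1.32%) lower, together 5.46%. Against beta cells alone, 198 (2.18%) were higher and 29 (0.319%) lower, together 2.5%. The 3 comparisons share the glucagon-insulin cells, and the sum is built from the other columns. Of 1076 genes that differed more than 2-fold between alpha and beta cells, 1050 (97.6%) had a level in glucagon-insulin cells between the alpha and the beta level, 10 lay above both and 16 below both. When hormone UMIs were kept in the total, the split turned: 94 genes were higher and 424 lower than in alpha cells.

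**Figure D3:**
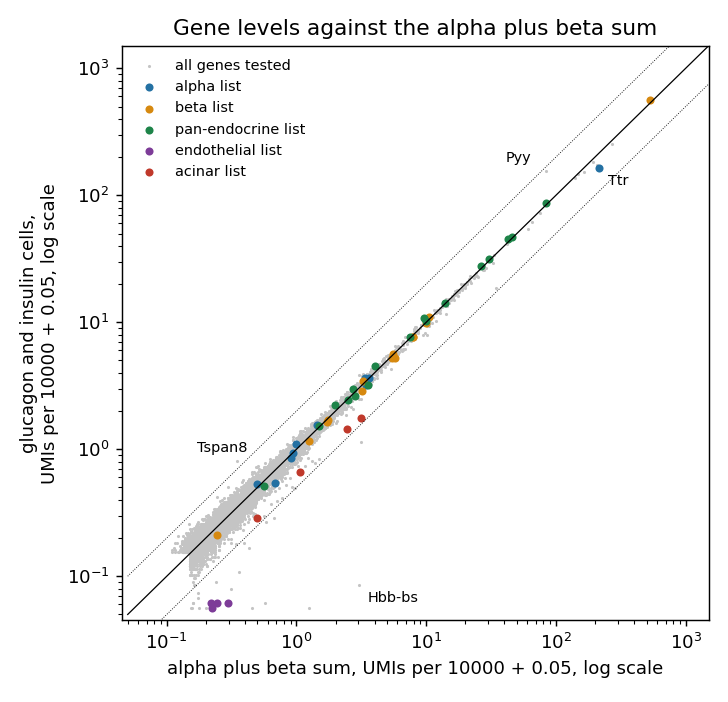
Level of each of 9083 genes in glucagon-insulin cells against its level in the alpha plus beta sum, both as UMIs per 10000 plus 0.05 on log scales; the solid line is equality, dotted lines are 2-fold and coloured points are genes of fixed lists. Alpha, beta and pan-endocrine list genes lie within the dotted lines, while the 4 endothelial list genes compared and Hbb-bs lie below and Tspan8 above.

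Of the 12 genes of the alpha list reported here, 10 were compared, and their median log2 difference from the sum was −0.01, where the median over all genes was 0.02. They ran from −0.39 for Ttr to 0.13 for Smarca1, and 0 of 10 were past 2-fold, where the share over all genes was 0.275%. Against alpha cells 5 of the 10 were more than 2-fold lower, where the share over all genes was 1.32%. Against beta cells 8 were more than 2-fold higher, where the share over all genes was 2.18%. High Gcg chose the cells, so alpha genes that go with glucagon are a description.

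Irx2, an Iroquois factor of alpha cells, was at 0.88 (blocks 1.01, 0.94 and 0.77), with 2.09 in alpha cells and 0.89 in the sum. Irx1, its relative, was at 0.49 (blocks 0.48, 0.39 and 0.55), with 1.498 in alpha cells and 0.63 in the sum. The Iroquois factors lay below alpha cells and above beta cells, where they were at most 0.016, in every block.

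Ttr, the thyroid hormone carrier that is abundant in alpha cells, was at 163 (blocks 191, 140 and 156), with 486 in alpha cells and 214 in the sum. Ttr was the list member farthest from the sum. Etv1, Smarca1, Slc38a5, Slc7a2 and Gc had log2 differences from the sum between −0.10 and 0.13.

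All 14 genes of the beta list were compared, with a median log2 difference from the sum of −0.05 and a range from −0.19 for Nnat to 0.10 for Iapp. Against alpha cells 13 of the 14 were more than 2-fold higher, where the share over all genes was 4.14%. Against beta cells 0 were more than 2-fold lower, with a median of −0.78, where the share over all genes was 0.319%. High insulin chose the cells, so beta genes that go with insulin are a description too.

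Mafa, the factor of mature beta cells that binds the insulin promoters, was at 7.62 (blocks 7.48, 8.36 and 7.39), with 13.3 in beta cells, 0.59 in alpha cells and 7.92 in the sum. Nkx6-1, a homeodomain factor of beta cells, was at 3.39 (blocks 3.27, 3.13 and 3.56), with 5.18 in beta cells and 3.19 in the sum. Pdx1 was at 1.12 (blocks 1.09, 1.44 and 1.01), with 2.00 in beta cells and 1.21 in the sum. The 3 factors lay below beta cells and above alpha cells in every block.

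Ucn3, a peptide of mature beta cells, was at 2.84 (blocks 3.35, 2.35 and 2.73), with 5.37 in beta cells and 3.17 in the sum. Slc2a2, the glucose transporter GLUT2, was at 5.17, with 9.67 in beta cells and 5.72 in the sum. Iapp, the amylin gene, was at 565, with 878 in beta cells, 44.8 in alpha cells and 527 in the sum. G6pc2, Glp1r and Prlr had levels of 7.64, 5.14 and 5.58, with sums of 7.93, 5.44 and 5.48.

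**Figure D4:**
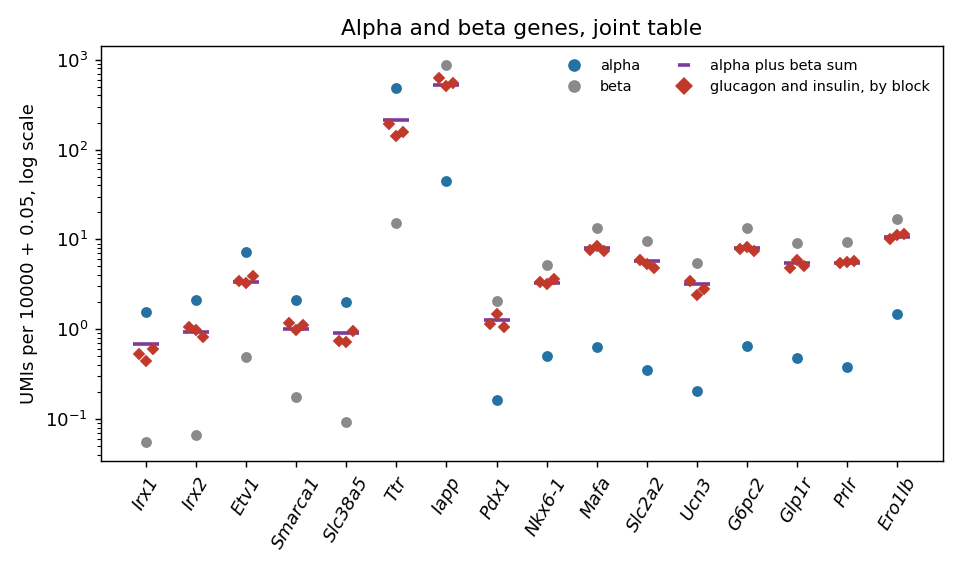
Levels of 6 alpha and 10 beta list genes in the joint table, as UMIs per 10000 UMIs other than hormones plus 0.05 on a log scale; circles are alpha and beta cells, bars the alpha plus beta sum and diamonds the glucagon-insulin cells of blocks 1 to 3. For each gene the diamonds sit between the alpha and the beta circle and close to the sum, as for Irx2 (2.09 in alpha cells, 0.88 in glucagon-insulin cells, 0.016 in beta cells).

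The 17 pan-endocrine genes, which serve hormone processing and endocrine fate, had a median log2 difference from the sum of 0.04. None were past 2-fold (0 of 17), nor were the progenitor and stress genes below, which at 0.275% over all genes says little of lists of this size. Pcsk1, the convertase used for proinsulin, was at 2.96 with 4.49 in beta cells and 0.16 in alpha cells. Pcsk2, the convertase that makes glucagon, was at 46.6 with 57.4 in alpha cells and 37.9 in beta cells. Of 12 progenitor and immaturity genes 5 were compared, with a median of 0.05. Of 10 stress genes 9 were compared, with a median of 0.06 and a range from −0.36 for Ddit3 to 0.14 for Atf3. The 8 cycling genes were all too low to compare; 3 of 159 glucagon-insulin cells had a Top2a UMI, and 24 of their 29 Top2a UMIs came from 1 cell.

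The rule did not use transcription factors, so alpha and beta factors in the same barcode were counted. At least 1 UMI of Irx1 or Irx2 together with at least 1 of Mafa, Nkx6-1 or Pdx1 was found in 103 of 159 glucagon-insulin cells, or 64.8% (56.8% to 72.2%). It was found in 29.9% of alpha cells, 1.24% of beta cells and 0.133% of non-endocrine barcodes. Alpha cells within the interquartile range of the glucagon-insulin cells' non-hormone UMIs had 51.7% (40.8% to 62.6%), an interval that overlaps that of the glucagon-insulin cells, and beta cells of that depth had 1.39%. Beta factors with or without alpha factors were found in 23.7% of non-endocrine barcodes and 37.9% of alpha cells. Both kinds together were found in 77.9% of pairs, which lies above the interval of the glucagon-insulin cells. Of the 14 shallow barcodes 1 had both kinds of factor, against 102 of the other 145 (70.3%). With every barcode thinned to 3000 UMIs outside the hormones, the shares were 30.9% in glucagon-insulin cells, 32.8% in pairs, 15.6% in alpha cells and 0.528% in beta cells. Thinning left out 16 glucagon-insulin cells with fewer UMIs.

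The 145 deeper cells were also ordered by the Gcg share of their Gcg and insulin UMIs, which the rule used, so this is a description. In the 49 cells with the lowest Gcg share (3.55% to 9.24%) the alpha list made up 15.9% of alpha and beta list UMIs, both without Ttr and Iapp. It made up 20.2% in the 48 cells of the middle and 24.7% in the 48 with the highest Gcg share (15.7% to 39.4%). In levels, the alpha list stood at 12.8, 17.4 and 16.6 per 10000 in these sets, and the beta list at 68.0, 68.8 and 50.6. From the middle to the highest set the alpha level thus did not rise, while the beta level was lower. Median UMIs were 28962, 27024 and 21940.

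Sex-linked RNA was not used by the rule. Replicates 2 and 3 pooled mice, and cells of females express Xist and those of males the Y-linked genes Ddx3y, Eif2s3y, Uty and Kdm5d. Xist alone was found in 86.0% of alpha cells and 68.3% of beta cells, and Y-linked UMIs alone in 5.80% and 18.2%. The readout thus differed between hormone classes. Xist and Y-linked UMIs were found together in 42 of 159 glucagon-insulin cells, or 26.4% (19.7% to 34.0%). The blocks gave 21.2%, 25% and 30.4%. The share was 2.84% in alpha cells, 3.98% in beta cells and 0.667% in non-endocrine barcodes. In pairs of 1 alpha and 1 beta cell it was 26.5%, with 26.2%, 23.3% and 29.0% in the blocks. The glucagon-insulin cells thus lay above alpha and beta cells, with intervals that do not overlap, and within counting error of the pairs.

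Beta cells within the interquartile range of the glucagon-insulin cells' non-hormone UMIs had a share of 6.56% (5.52% to 7.74%), and alpha cells within it 9.20% (4.05% to 17.3%). These intervals too lay below that of the glucagon-insulin cells. At least 2 UMIs of each kind were found in 17.0% of glucagon-insulin cells, 13.8% of pairs, 1.12% of beta cells and 0.947% of alpha cells. Thinned to 3000 UMIs, the shares were 13.0% in glucagon-insulin cells, 9.41% in pairs, 1.58% in alpha cells and 1.49% in beta cells. Of the other glucagon-insulin cells, 105 had Xist alone, 8 had Y-linked UMIs alone and 4 had neither. The measure does not count cells, and 2 cells of the same sex would not give both kinds. The part of free Xist or Y-linked RNA in these shares was not tested. Library 1 lists no Y-linked gene, so its 2 cells could not be assessed.

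**Figure D5:**
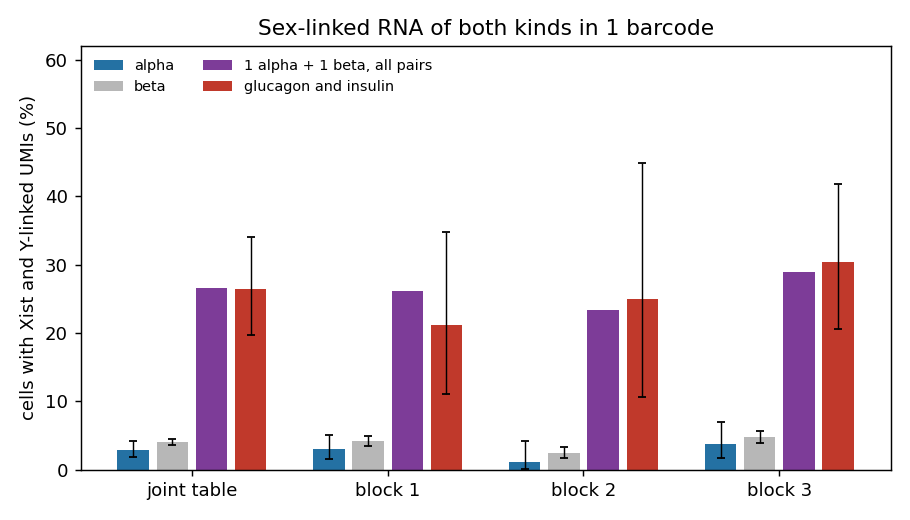
Percent of barcodes with at least 1 Xist UMI and at least 1 UMI of a Y-linked gene, in the joint table and its blocks; error bars are exact 95% binomial intervals, and pairs, which reuse cells, have none. The glucagon-insulin cells (26.4%) stand beside the alpha-beta pairs (26.5%) and above alpha (2.84%) and beta cells (3.98%).

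Scrublet, which scores barcodes by their likeness to sums of random cells, gave a median score of 0.216 in glucagon-insulin cells, 0.0732 in beta cells and 0.0198 in alpha cells. Its automatic threshold marked 12 of 28 glucagon-insulin cells in block 2 but 0 of 52 in block 1 and 0 of 79 in block 3, so the highest scores were counted at a rate of 0.8% per 1000 cells. These held 87 of 159 glucagon-insulin cells (54.7%), 141 of 7085 beta cells (1.99%) and 9 of 845 alpha cells (1.07%). The blocks gave 69.2%, 64.3% and 41.8%. The score reads the same genes that define the classes and is not independent of the hormone rule.

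The reporter was counted as the row named TdTomato. In the joint table it had a UMI in 83 of 159 glucagon-insulin cells, or 52.2% (44.1% to 60.2%), with 46.2%, 53.6% and 55.7% in the blocks. It had one in 30.1% of alpha cells, 37.2% of beta cells and 56.3% of pairs. Beta cells at the depth of the glucagon-insulin cells had 46.6% (44.4% to 48.9%), which lies inside the interval of the glucagon-insulin cells. The row's level was 0.773 per 10000 (0.647 to 0.916) in glucagon-insulin cells, 0.703 in alpha and 0.708 in beta cells. Non-endocrine barcodes had a TdTomato UMI in 17.5% of cases at 2851.5 UMIs, and no Cre-negative sample shows what background this row has. In library 1 the row had 0 UMIs in both glucagon-insulin cells and was seen in 2.16% of beta cells, so the row is not comparable between the tables.

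Neurog3 (chromosome 10, 62133090 to 62134763, plus strand, mm10), the progenitor factor that drives the Cre, had 1 UMI in each of 9 of 159 glucagon-insulin cells, or 5.66% (2.62% to 10.5%). These were 1 of 52 in block 1, 4 of 28 in block 2 and 4 of 79 in block 3. The share was 0.932% in beta cells, 1.04% (0.648% to 1.59%) in beta cells of the same depth, 0.995% in pairs, 1 of 845 alpha cells and 0 of 1500 non-endocrine barcodes. In alpha cells of the same depth it was 1 of 87, or 1.15% (0.0291% to 6.24%), an interval that overlaps that of the glucagon-insulin cells. The glucagon-insulin interval lay above that of beta cells of the same depth and above the share in pairs, on 9 UMIs, of which block 1 gave 1. Its level was 0.0523 per 10000 (0.0239 to 0.0993), with 0.00913 in the sum. Sst, the hormone of delta cells, was at least 10 per 10000 in 2 of the 9 cells and in 20 of all 159, with medians of 0.419 in the 9 and 0.776 in the others. The part of delta cell RNA in the Neurog3 share was not tested.

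Pancreatic polypeptide marked a subset. Ppy was at least 100 per 10000 in 20 of 159 glucagon-insulin cells, or 12.6%, of which 5 were in block 1, 1 in block 2 and 14 in block 3. The alpha class leaves out such cells by definition: of 1188 joint-table barcodes with high Gcg, low insulin and low Sst, 343 (28.9%) had Ppy at least 100. The 20 cells had a Pyy level of 570, against 82.3 in the other 139, a Tspan8 level of 1.87 against 0.56, and a Ttr level of 103 against 173.

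Among the genes highest against the sum, Tspan8, a tetraspanin of the cell surface, had a level of 0.755 (blocks 0.754, 0.747 and 0.760), against 0.306 in alpha cells, 0.293 in beta cells and 0.298 in the sum. Its log2 difference was 1.21, with 1.16, 1.24 and 1.26 in the blocks, and 54 cells had a UMI. Pyy, peptide YY, had a log2 difference of 0.90, with 0.61, 0.02 and 1.29 in the blocks. In the 139 cells with Ppy under 100, 0 genes were more than 2-fold above the sum, and Tspan8 was above it by 0.81 on the log2 scale. The Pyy difference was smallest in block 2, which held 1 cell with high Ppy, whereas that of Tspan8 was alike in all blocks. Spp1, Ralgapa2, Fxyd3, Car15, Pwwp3b, Rfx7, Ffar2 and Psmd14 followed, with log2 differences of 0.45 to 0.57. The same sign in all blocks was a condition for naming a gene here, so it is not a result.

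The genes lowest against the sum were not islet hormone-cell genes. Hbb-bs, a haemoglobin chain of red blood cells, had a level of 0.0349 against 2.99 in the sum, but 99.6% of the alpha class's Hbb-bs UMIs came from 1 cell with 3081 UMIs. Hba-a1 likewise had 99.8% of its alpha UMIs in 1 cell. All 4 endothelial list genes compared, Flt1, Kdr, Plvap and Emcn, were more than 2-fold lower in the joint table, where the share over all genes was 0.264%. In block 2, however, their log2 differences were −0.47 to −0.82. A single alpha cell held 35.3% to 40.2% of the alpha class's UMIs of each. The summed level of the endothelial list was 0.0813 (blocks 0.0992, 0.0277 and 0.0935), against 1.54 in alpha cells, 0.552 in beta cells and 0.968 in the sum (blocks 1.39, 0.212 and 0.718). Non-endocrine markers reached 10 per 10000 in 1 of 159 glucagon-insulin cells (0.629%), 2.25% of alpha cells and 1.34% of beta cells.

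Digestive enzyme genes of acinar cells were also lower: the 4 of the acinar list had log2 differences of −0.67 to −0.83 from the sum, and Cela2a and Sycn were at −1.22 and −1.13. Their summed level was 3.96 (blocks 5.16, 5.09 and 2.77), against 8.52 in alpha cells, 5.78 in beta cells and 6.94 in the sum (blocks 8.46, 5.92 and 5.09). In block 2 Prss2 and Ctrb1 differed from that block's own sum by −0.09 and −0.22 on the log2 scale, against −0.70 and −0.79 in block 1. AY036118 and Gm42418, which overlap ribosomal RNA sequence, were lower by 1.46 and 0.90 on the log2 scale. AY036118 had a level of 1.10 against 3.11 in the sum, and Gm42418 had 18.6 against 34.7. Of the 9 genes of the immune list 3 were compared, with a median of 0.04, and the summed level was 1.04 against 1.09 in the sum. Outside that list, the antigen presentation genes Cd74, H2-Eb1, H2-Aa and H2-Ab1 were among the 24 genes more than 2-fold lower, with log2 differences of −1.98, −1.66, −1.50 and −1.38. They were picked out after their values were seen. The acinar and endothelial sums, AY036118 and Gm42418 were each highest in alpha cells, which among alpha, beta and glucagon-insulin cells had the fewest non-hormone UMIs (median 5002). The part of depth in these differences was not tested.

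The 2 glucagon-insulin cells of library 1 were both deep. The first had 52824 UMIs and 5127 genes, with 6852 Gcg UMIs (1297 per 10000) and insulin at 4731 per 10000. It held 2 Irx2 UMIs together with 17 Mafa, 10 Nkx6-1 and 2 Pdx1 UMIs. The second had 82212 UMIs and 6455 genes, with 3408 Gcg UMIs (415 per 10000) and insulin at 5480 per 10000. It held 3 Irx2 UMIs together with 34 Mafa, 21 Nkx6-1 and 8 Pdx1 UMIs. Their UMI totals lay at or above those of 77.2% and 94.6% of beta cells of that library, whose median was 39246. Neither had a Neurog3 or TdTomato UMI. Both held alpha and beta factors, as 70.3% of the deeper cells of the joint table did.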

How the data were processed

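The authors deposited whole UMI counts for replicate 1, made with Cell Ranger 3.2.0 on mm10, per the submitters' processing notes. They deposited 1 table for replicates 2 and 3 (Cell Ranger 5.0.0 and Seurat 4.0.0, per the same notes), whose values are the natural log of 1 plus UMIs per 10000. Whole UMIs were recovered from it within a tolerance of 0.001. Columns of 1 suffix were exact copies of another and were dropped. Barcodes needed 500 genes and 1000 UMIs, with mitochondrial UMIs up to 20%. Scrublet (scanpy 1.11.5) scored doublets, and none were removed. Classes were compared with Python 3.11.15, numpy 2.4.6 and scipy 1.17.1, and the steps were checked on simulated data. The design called for limma with 2 libraries; with 2 cells in library 1, under the minimum of 10, values without a test are given, and more than 2-fold stands in for a call.

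Members and gene lists were chosen with earlier results of these data known. Genes named were list members and, against the sum, the 10 highest and 10 lowest log2 differences of 1 sign in all blocks with a level of at least 0.5. Gene coordinates are from GENCODE vM21. Depth is in the text. Alternatives covered the pseudocount, filters, thresholds, class rules and blocks left out. Some genes of the alpha list are not reported here, and its counts and shares were computed without them.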

Additional observations from a re-analysis of the deposited data

How the results depend on the processing

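The number of genes more than 2-fold from the alpha plus beta sum, 25, became 41 with a pseudocount of 0.01, 4 with 0.5 and 11 with hormones kept in the total. It became 76 over the 54 cells with at least 400 Gcg and 5000 insulin, 56 over the 72 cells without the highest Scrublet scores and 407 over the 49 cells with UMIs at or under the beta median. Without barcode block 1 it was 16 and without block 3 it was 45. Library 1 alone, with 2 cells, gave 2991. Against alpha cells the 496 genes became 87 with a pseudocount of 0.5, 887 over the cells with UMIs at or under the beta median and 3599 in library 1 alone. Against beta cells the 227 genes became 36, 815 and 3084 in the same order, and 135 with hormones kept in the total. The 159 cells became 54 at 400 Gcg and 5000 insulin, and 80 without block 3. The share with Xist and Y-linked UMIs of 26.4% became 17.0% when at least 2 UMIs of each were required. Fewer cells mean fewer UMIs behind each level, and the cause of the other shifts was not tested. In 49 further alternatives counts and medians moved by less than 1.5 times or less than their spread. The 49, like the gene values below, include leaving out replicate 1. That cannot change the gene comparisons, which use the joint table alone. Of 511 values of 27 named genes under alternatives, 98 moved by more than 1 SD over blocks. A change of sign was counted only for genes more than 2-fold from the sum, and there it was 0. Genes nearer the sum could change sign, as Fxyd3 did from 0.56 to −2.66 in library 1 alone, with 2 cells.

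No paired analysis was possible because the samples form 1 group and library 1 held 2 cells. The planned fits with limma, edgeR and DESeq2, with or without the library block, were not run for the same reason. Leaving out 1 of replicates 2 and 3 was not run either, since no label ties a barcode to one of them. The settings that leave out a block, ask for at least 5000 UMIs or ask for 2 sex-linked UMIs were chosen after seeing the data. Depth limits genes under about 0.1 per 10000.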

Other observations

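Other mixtures of marks in the joint table were counted in the same way. Non-endocrine markers with insulin were found in 101 barcodes, 0.0926 of the product of their shares, and non-endocrine markers with glucagon in 26, or 0.116. Pancreatic polypeptide with insulin was found in 197, or 0.221. Somatostatin with glucagon was found in 215, or 1.47. Block 3 had the highest ratio for glucagon with insulin (0.286), somatostatin with insulin (0.530) and pancreatic polypeptide with insulin (0.287), but block 1 had the highest for non-endocrine markers with insulin (0.122).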
